A study of Mus musculus with 23 samples.

Results

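The 8 genes examined here, of T cells and of the chemokine signals that draw leukocytes into tissue, were measured in the mouse nucleus accumbens: Cd3d, Cd3e and Cd3g of the T cell receptor complex, the co-receptor genes Cd8a and Cd8b1, and the chemokine genes Ccl5, Ccl2 and Cxcl10. They were chosen by name, with earlier results of these data known. Each had exactly 1 probe set carrying its symbol alone, so 8 of the 22180 genes named on the arrays are described. The study injected adeno-associated virus (AAV) into the nucleus accumbens, a region of the ventral striatum concerned with reward, and asked how the circadian gene Nr1d1 acts there. The virus carried either a short hairpin RNA (shRNA) against Nr1d1 or a scrambled control hairpin. The strain is given as C57BL/6J in the growth text, the mice were about 15 weeks old, and the tissue was taken about 5 weeks after injection. The females comprised 5 controls and 6 mice labelled knockdown, the males 6 of each, with 1 array per mouse. Every mouse had thus received an intracranial injection of AAV, controls included, and no uninjected mouse is among these samples. The labels name neither the viral serotype nor the promoter that drove the hairpin. The treatment text speaks of collection on postpartum day 7 for every sample, males included, and no use was made of it.

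T cells recognise peptides held by major histocompatibility complex (MHC) molecules through a receptor that signals through the CD3 chains gamma, delta and epsilon. On cytotoxic T cells the CD8 alpha and beta chains bind MHC class I beside it. Healthy brain tissue holds few T cells, and after viral infection or injury they can enter it along gradients of chemokines. Ccl2 chiefly attracts monocytes through the receptor Ccr2, Ccl5 attracts T cells and other leukocytes, and Cxcl10 is induced by interferons and attracts activated T cells through Cxcr3.

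The genes lie in 4 places on the GRCm38.p6 assembly of RefSeq. Cd3g (chr9:44969572-44980431), Cd3d (chr9:44981769-44987052) and Cd3e (chr9:44998735-45009663) are neighbours, with 1337 bases between Cd3g and Cd3d, which are transcribed away from each other, and 11682 between Cd3d and Cd3e. Cd8b1 (chr6:71322788-71337492) and Cd8a (chr6:71373427-71379171) are likewise neighbours, 35934 bases apart. Ccl2 (chr11:82035577-82037452) and Ccl5 (chr11:83525778-83530518) share a chromosome, and Cxcl10 lies at chr5:92346638-92348889. Start regions of 5 of the 8 genes were in the RefSeq promoter table. The 250 bases before the transcript start used in that table, which for Cd3d lies just inside the span of the gene, are shown for Cxcl10, the gene that varied most between mice, and for the neighbours Cd3g and Cd3d, which differed in which mice were high. They are written 5′ to 3′ on the strand of the gene, Cxcl10 at chr5:92348890-92349139 (minus strand), Cd3g at chr9:44980432-44980681 (minus strand) and Cd3d at chr9:44981536-44981785 (plus strand). Capitals mark matches to the searched motifs.
Cxcl10: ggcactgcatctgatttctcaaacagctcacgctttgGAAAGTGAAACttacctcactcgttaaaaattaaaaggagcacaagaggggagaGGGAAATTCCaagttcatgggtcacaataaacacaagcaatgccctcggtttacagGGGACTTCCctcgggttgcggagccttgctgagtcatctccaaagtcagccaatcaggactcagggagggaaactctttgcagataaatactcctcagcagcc
Cd3g: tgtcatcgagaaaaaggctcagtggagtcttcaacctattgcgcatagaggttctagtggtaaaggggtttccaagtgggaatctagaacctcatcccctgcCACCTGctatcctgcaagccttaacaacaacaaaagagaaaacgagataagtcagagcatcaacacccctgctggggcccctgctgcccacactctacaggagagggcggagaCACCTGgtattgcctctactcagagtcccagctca
Cd3d: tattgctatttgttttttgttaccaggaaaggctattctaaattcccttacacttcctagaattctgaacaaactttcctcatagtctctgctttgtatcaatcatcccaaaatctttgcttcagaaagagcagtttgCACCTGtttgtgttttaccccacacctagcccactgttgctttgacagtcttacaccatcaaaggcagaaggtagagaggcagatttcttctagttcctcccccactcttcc
The motifs were searched on both strands. They were the interferon-stimulated response element (GAAA and GAAAC with any 2 bases between them), the kappa B element of the NF-kappa B factors (GGGA and TTCC with any 1 or 2 bases between them), the E-box CACCTG bound by factors of lymphocyte development, and AGGTCA, the core of the element to which REV-ERB, the product of Nr1d1, binds. The Cxcl10 region held 1 interferon element, 213 to 203 bases before the start, and 2 kappa B elements, at 159 to 150 and at 103 to 95 bases, none of them overlapping. Of 32851 promoters of the same length, 0.685% held the interferon element, 2.62% a kappa B element, and 10 promoters, or 0.0304%, held both. Cd3g held 2 E-boxes and Cd3d held 1, against 17.2% of all promoters with at least 1. The AGGTCA core, found in 14% of promoters, was in none of the 5 windows. These are letter matches in 250 bases and are not measurements of binding.

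The labels and the tissue were checked first. The sex genes matched the labels on all arrays, with Xist between 11.4 and 11.78 in the 11 females and between 3.85 and 4.12 in the 12 males (log2 intensity). Genes of medium spiny neurons, the main cells of the region, were well above background on every array, among them Drd2 at 10.8 or more and Penk at 12.41 or more. Slc17a7, a gene of cortical neurons outside the accumbens, ran from 8.92 to 11.13 in females and from 4.64 to 10.34 in males, so the punches differed in neighbouring tissue. Array medians lay between 6.11 and 6.17 in females and between 5.84 and 5.88 in males, so the sexes look as if they were normalized apart, and a level is set only against mice of the same sex. The targeted gene Nr1d1 did not fall by the test. It was 10.04 ± 0.07 (SD, n = 5) in control and 9.99 ± 0.16 (SD, n = 6) in knockdown females (exact permutation p = 0.563), and 9.59 ± 0.20 (SD, n = 6) and 9.58 ± 0.13 (SD, n = 6) in males (exact permutation p = 0.926). Knockdown below means the arrays labelled so. Values are log2 intensities, differences are knockdown minus control on the log2 scale, and n counts mice.

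Against background, most of the 8 genes were dim. The background line of an array was set as the 95th percentile of its 1105 olfactory receptor genes, a family known from the nose. The line lay between 5.92 and 6.13 in females and between 5.65 and 5.82 in males, and on every array of a sex it was passed by 56.5% of all genes in females and 56.1% in males. Ccl5 was the gene that passed it most often, on 12 of 12 male and 5 of 11 female arrays. Cd3e, Ccl2 and Cxcl10 passed it on 1 female array each and on 0 male arrays. The other 4, Cd3d, Cd3g, Cd8a and Cd8b1, passed it on 0 of 23. Probe sets differ in how well they bind, so a signal under the line does not show that a transcript was absent, and levels of different genes are not ranked. With vomeronasal receptor genes as the background, Ccl5 passed on 11 of 11 female and 12 of 12 male arrays, and the other 7 genes on at most 2 arrays.

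Each gene was then placed within the background family of its array, as a position of its probe set and not as an order of the genes. Cd3g stood above a median of 65.4% of olfactory receptor genes in females and 69.6% in males. Cd3d stood above 79.5% and 84.8%, Cd8a above 84.2% and 83.7%, Cd8b1 above 86.3% and 86.2%, and Cxcl10 above 83.5% and 86.7%. Cd3e stood above 92.9% and 93.4%, Ccl2 above 93.8% and 93.0%, and Ccl5 above 94.8% and 97.3%. In contrast, the defining genes of microglia, the resident immune cells of the brain, were measured clearly, with P2ry12 between 8.75 and 9.07 over all 23 mice. In such tissue samples fewer cells of a type and less RNA per cell cannot be told apart.

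**Figure D1:**
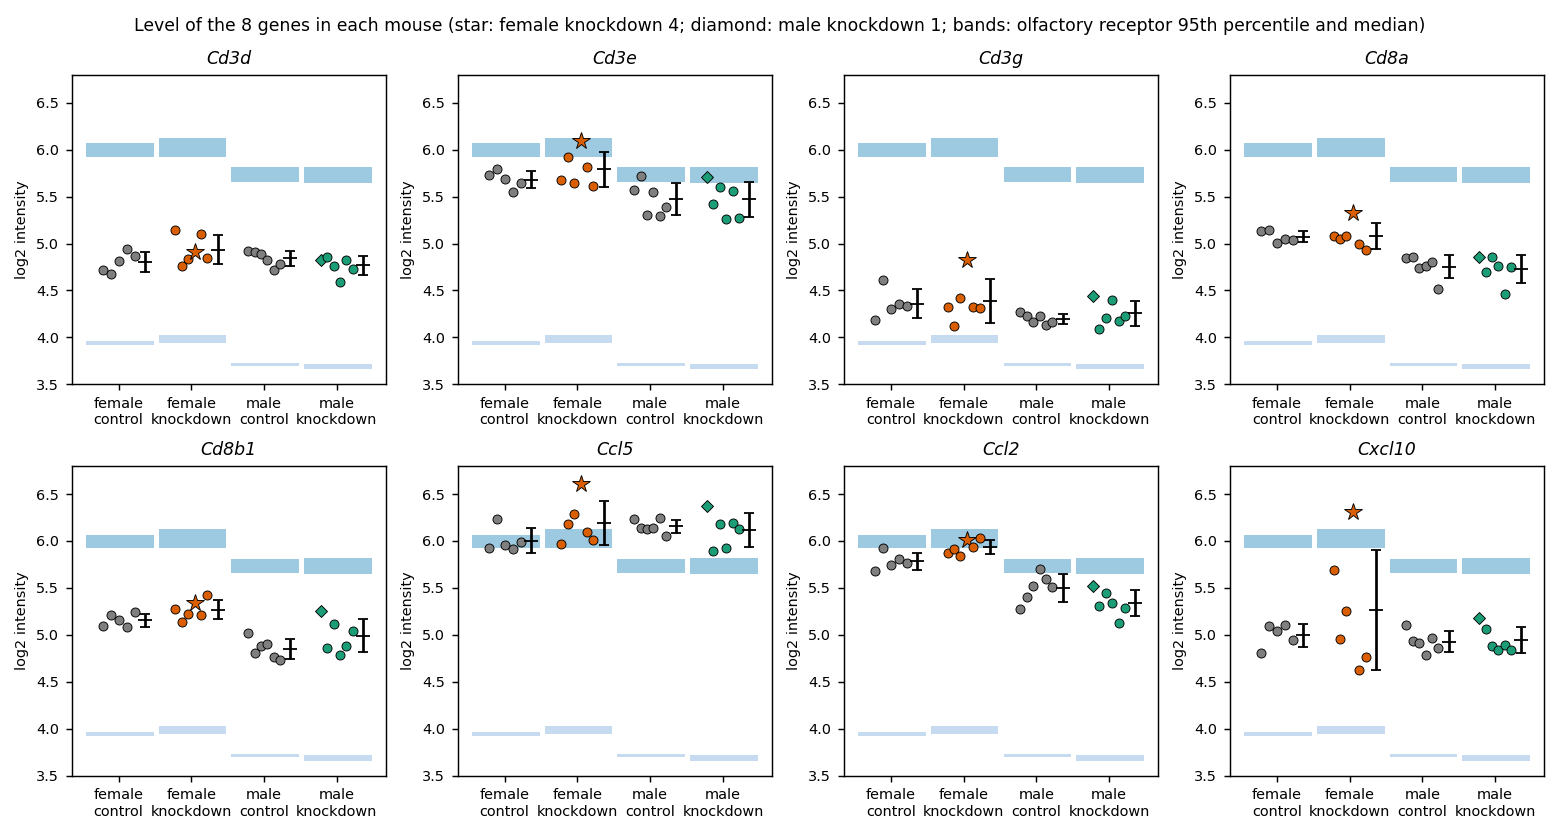
Log2 intensity (y axis) of each of the 8 genes in each mouse, by group (x axis); points are mice, black bars the group mean ± SD, the star is female knockdown replicate 4 and the diamond male knockdown replicate 1. The upper bands span the olfactory receptor 95th percentiles of the arrays in a group and the lower bands their medians; in the males only Ccl5 lies above the upper band.

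A single female stood apart. Female knockdown replicate 4 had the highest value among the 11 females for 5 of the 8 genes, Cd3e, Cd3g, Cd8a, Ccl5 and Cxcl10, while over all 22180 genes it was the highest for 11.5%. All 8 genes were above the control mean in this mouse, by 0.45 on average. It was also the array on which 4 of the 8 passed the background line, against 0 or 1 on each of the other 10 female arrays. The line of this array, at 5.92, was the lowest of the females, the highest being 6.13. Ccl5 at 6.61 and Cxcl10 at 6.31 lay above that highest line as well, but Cd3e at 6.09 and Ccl2 at 6.01 did not. For Ccl2 replicate 4 was second, behind female knockdown replicate 6 at 6.03, which did not pass its own line. For Cd8b1 replicate 4 was second at 5.34, behind the same mouse at 5.42. Cd3d was the exception, at 4.91 within the range of the other females, and was highest in female knockdown replicate 1 at 5.14. Nr1d1 was at 9.73 in replicate 4, the lowest of the 11 females, the others lying between 9.93 and 10.17.

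The same female had the highest values of interferon and MHC class I genes. It was highest for 16 of 19 measured interferon response genes and for 6 of 9 MHC class I presentation genes. Oasl2, an interferon-induced gene of the oligoadenylate synthetase family, was at 8.27 there against 6.35 to 7.05 in the other females, and B2m, the light chain of MHC class I, at 12.26 against 11.27 to 11.99. Cxcl9, another interferon-induced ligand of Cxcr3, was at 5.97 against 4.64 to 5.52. Of 9 B and plasma cell genes, 3 were highest there, Jchain, Ighm and Cd79a, and 3 others in female knockdown replicate 5. In replicate 4, 5 of these 9 lay above the control mean with a median of 0.02, and Pax5, at 5.27, was the lowest of the females. Of 8 astrocyte genes 4 were highest in replicate 4, among them Gfap, an intermediate filament of astrocytes, at 8.29 against 6.89 to 8.23. Aldh1l1 of the same list, at 7.43, was the lowest of the females. Female control replicate 2 was highest for 3 of the 8. Of 9 endothelial genes 3 were highest in replicate 4 and 3 in female knockdown replicate 1. The list means of 18 other T cell genes stood between 5.24 and 5.32 over the 6 knockdown females and between 5.23 and 5.28 over the 5 controls, and replicate 4 was the highest for 3 of the 18 and the lowest for 6. The part of interferon response, astrocytes, B cells or vessels in the differences below was not tested.

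Among the males, knockdown replicate 1 was the highest for 4 of the 8 genes, Cd3g, Cd8b1, Ccl5 and Cxcl10, and for 7.41% of all genes. It was also the highest for 5 of 9 MHC class I genes but for 0 of 19 interferon genes. The male highest for most interferon genes, 13 of 19, was control replicate 1, which was the highest for 1 of the 8 genes, Cd3d at 4.92. In the males, then, the mouse highest for most interferon genes was not the one highest for most of the 8 genes. Of 18 other T cell genes, male knockdown replicate 1 was the highest for 0 and male control replicate 2 for 5.

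**Figure D2:**
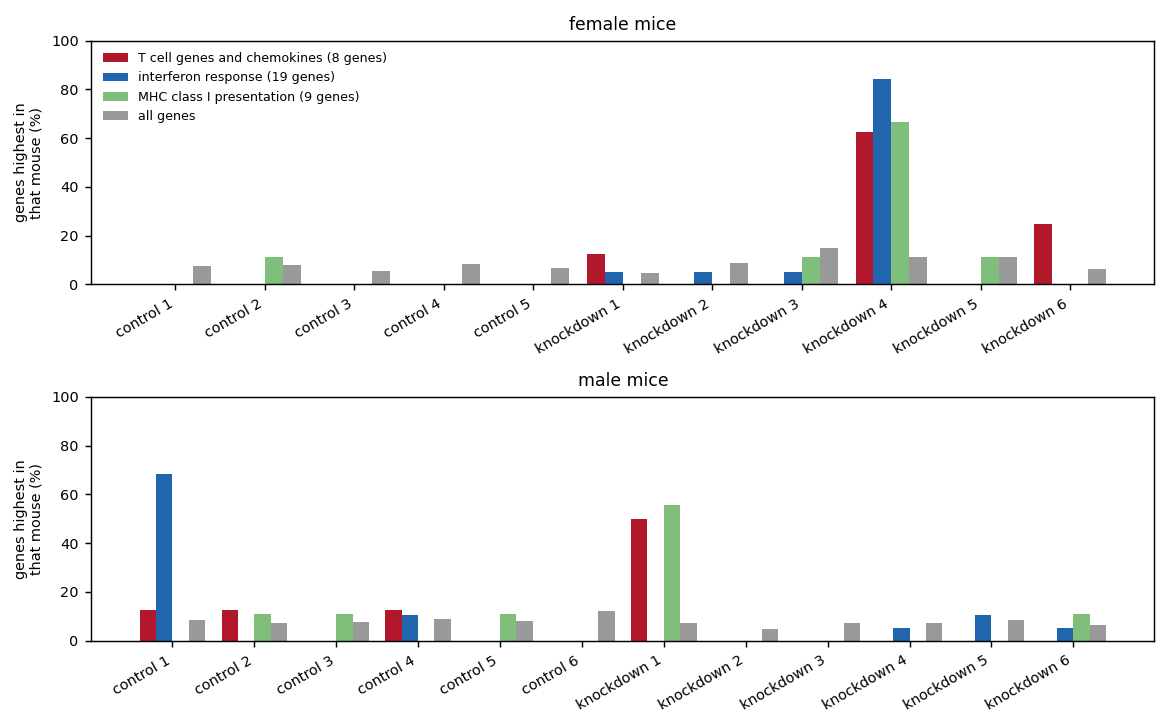
Share of the genes of each list (y axis, percent) that were highest in a given mouse among the 11 females (top) or 12 males (bottom); grey bars give the same share over all genes. Female knockdown replicate 4 has the highest bars of the 3 lists drawn, at 62.5%, 84.2% and 66.7%, and in males the peaks lie in 2 different mice.

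Knockdown was then compared with control. No gene passed in any contrast. By limma, 0 of 41345 probe sets (0%) had a Benjamini-Hochberg adjusted p below 0.05 in females, in males, in the average of both sexes or in the male difference minus the female one. At an unadjusted p below 0.05 there were 2423 probe sets (5.86%), 1948 (4.71%), 1949 (4.71%) and 2358 (5.7%). For the 8 genes, adjusted p lay between 0.845 and 1 in all 4 contrasts, so each difference given here was within what the spread between mice allows over so many tests.

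In females all 8 genes had a difference above 0, with a median of 0.12. Over all genes 50.1% were above 0 with a median of 0.0003, and of the olfactory receptor genes 65.5% were above 0 with a median of 0.03. Cd8a and Cd3g, at 0.003 and 0.03, were below 0 at −0.03 and −0.002 after quantile normalization and at −0.04 and −0.01 once each array was centred on its olfactory receptors, so 6 of 8 remained above 0 there. At an unadjusted p below 0.05 there was 1 of 8 above 0, Ccl2, against 2.89% of all genes, and 0 of 8 below 0, against 2.74%. Without replicate 4, 6 of 8 were above 0 and the median was 0.08. The median and the count describe 8 genes measured in the same mice, and chosen with such values known.

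In males the 8 genes divided, with 3 above 0, 4 below 0 and Cd3e at 0.00, and a median of −0.01 against 0.003 over all genes, of which 51.4% were above 0. Of the olfactory receptor genes 43.6% were above 0 in males, with a median of −0.01. With each array centred on its olfactory receptors the median of the 8 genes was 0.01. Without male knockdown replicate 1, 2 of 8 were above 0 and the median was −0.05. At an unadjusted p below 0.05 there was 1 of 8 below 0, again Ccl2, against 1.89% of all genes, and 0 of 8 above 0, against 2.07%. In the average of both sexes 6 of 8 were above 0, against 51.2% of all genes, and 1 of 8, Cd8b1, was above 0 at an unadjusted p below 0.05, against 2.33%. No member was below 0 at that p there, against 1.88% of all genes.

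Among the CD3 chains Cd3d, the delta chain, differed in sign between the sexes. In control females it was at 4.72, 4.68, 4.81, 4.94 and 4.87 in replicates 1 to 5, and in knockdown females the lowest was 4.76, the median 4.88 and the highest 5.14. In control males it was between 4.72 and 4.92 with a median of 4.86, and in knockdown males between 4.59 and 4.86 with a median of 4.80. The groups overlapped in both sexes. The difference was 0.13 (SE 0.07) in females, with 5 of 6 knockdown mice above the control mean (exact permutation p = 0.154), and −0.08 (SE 0.07) in males, with 5 of 6 below it (exact permutation p = 0.193). The male difference minus the female one was −0.20 (SE 0.10, 95% interval −0.40 to −0.005, unadjusted p = 0.0453, adjusted p = 0.872 by limma). At that unadjusted p, 2 of 8 genes had a male difference below the female one, Cd3d and Ccl2, against 2.46% of all genes, and 0 of 8 above it, against 2.72%. By sign alone, 2 of 8 had a male difference above the female one, against 50.6% of all genes. The background family was itself shifted in this contrast, with 35.7% of olfactory receptor genes above 0 and a median of −0.04. Of these 1105 genes, 53 had a male difference below the female one at that unadjusted p, and 8 above it.

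Cd3e, the epsilon chain shared by both signalling pairs of the complex, was at 5.73, 5.79, 5.69, 5.55 and 5.64 in control females and from 5.61 to 6.09 with a median of 5.75 in knockdown females. In males it ran from 5.29 to 5.72 in controls and from 5.26 to 5.71 in knockdown mice, an almost complete overlap. The difference was 0.11 (SE 0.10) in females (exact permutation p = 0.275) and 0.00 (SE 0.09) in males (exact permutation p = 1). Without female knockdown replicate 4 the female difference was 0.05. Cd3g, the gamma chain, was at 4.19, 4.61, 4.30, 4.36 and 4.33 in control females and from 4.12 to 4.82 with a median of 4.32 in knockdown females, so the second highest female was a control. Its difference was 0.03 (SE 0.09) in females (exact permutation p = 0.857) and −0.06 without replicate 4. In males it was 0.06 (SE 0.09; exact permutation p = 0.342), and 0.03 without male knockdown replicate 1, whose 4.44 was the highest male value.

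The CD8 chains gave unlike values. Cd8a, the alpha chain, was at 5.13, 5.14, 5.01, 5.05 and 5.04 in control females, and in knockdown females 5 of 6 lay between 4.93 and 5.08 with replicate 4 at 5.33. The difference was 0.003 (SE 0.08) in females (exact permutation p = 0.981), and −0.05 without replicate 4. In males it was −0.02 (SE 0.07; exact permutation p = 0.768), with values from 4.52 to 4.86 in controls and from 4.46 to 4.86 in knockdown mice. Cd8b1, the beta chain, was at 5.09, 5.21, 5.16, 5.08 and 5.24 in control females and from 5.14 to 5.42 with a median of 5.25 in knockdown females. In males it was between 4.73 and 5.02 with a median of 4.85 in controls and between 4.79 and 5.25 with a median of 4.96 in knockdown mice. The groups overlapped in both sexes, although 3 of 6 knockdown mice of each sex lay above all of their controls. The difference was 0.11 (SE 0.07) in females (exact permutation p = 0.0693) and 0.14 (SE 0.07) in males (exact permutation p = 0.134), with 5 of 6 knockdown mice above the control mean in each. Averaged over the sexes it was 0.13 (SE 0.05, 95% interval 0.02 to 0.23, unadjusted p = 0.0222, adjusted p = 0.980 by limma). Without male knockdown replicate 1, at 5.25, the male difference was 0.09 and the average 0.10. All Cd8b1 values lay under the background line.

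Ccl2 was the chemokine whose difference had opposite signs in the sexes with the smallest p. In control females it was at 5.68, 5.92, 5.74, 5.81 and 5.77, and in knockdown females the lowest was 5.84, the median 5.93 and the highest 6.03. All 6 knockdown females lay above the control mean and 3 of 6 above every control. In males the order was the other way round, with 5.28 to 5.70 and a median of 5.52 in controls against 5.13 to 5.52 and a median of 5.33 in knockdown mice, 5 of 6 of which lay below the control mean. The groups overlapped in each sex. The difference was 0.15 (SE 0.07, 95% interval 0.0009 to 0.30) in females (exact permutation p = 0.0216, limma adjusted p = 0.852) and −0.16 (SE 0.07, 95% interval −0.30 to −0.02) in males (exact permutation p = 0.0823, limma adjusted p = 0.996). The exact test can reach 0.00216 in either sex, and its p values are not adjusted for the 8 genes. The male difference minus the female one was −0.31 (SE 0.10, 95% interval −0.51 to −0.10), with an unadjusted p of 0.0049 and an adjusted p of 0.845 by limma. Leaving out any single array kept it between −0.35 and −0.27, and the other alternatives between −0.31 and −0.25. Without female knockdown replicate 4 the female difference was 0.13, so it did not rest on that mouse. With any single array left out the female difference was between 0.12 and 0.18, and under the other alternatives between 0.11 and 0.15.

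Ccl5, the one of the 8 most often above background, was at 5.92, 6.23, 5.96, 5.91 and 5.99 in control females and had a lowest value of 5.97, a median of 6.14 and a highest of 6.61 in knockdown females. Control replicate 2, at 6.23, was higher than 4 of the 6 knockdown females. The difference was 0.19 (SE 0.10) in females (exact permutation p = 0.132), and 0.11 without replicate 4. In males, controls ran from 6.05 to 6.24 and knockdown mice from 5.89 to 6.37, with a difference of −0.04 (SE 0.09; exact permutation p = 0.632), and −0.09 without male knockdown replicate 1. The difference between the sexes was −0.23 (SE 0.14, adjusted p = 0.890 by limma).

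Cxcl10 had the widest spread, and it lay in the knockdown females. Control females were at 4.81, 5.09, 5.04, 5.10 and 4.94, with an SD of 0.12, while the knockdown females were at 5.69, 4.96, 5.25, 6.31, 4.63 and 4.76 in replicates 1 to 6, with an SD of 0.64. Thus 3 of the 6 lay above every control and 2 below every control. The difference was 0.27 (SE 0.19, 95% interval −0.13 to 0.67) in females (exact permutation p = 0.424). It was 0.06 without replicate 4 and −0.10 without replicates 1 and 4, so the sign rested on these 2 mice. In males the values were narrow, from 4.79 to 5.11 in controls and from 4.84 to 5.18 in knockdown mice, and the difference was 0.02 (SE 0.19; exact permutation p = 0.820). Replicate 1, the second highest female for Cxcl10, lay above the control mean for 15 of 19 interferon genes, by 0.08 on average, against 18 of 19 and 0.59 in replicate 4. Of the females with lower Cxcl10, some were near replicate 1 in this and the others were not. Control replicate 2, with Cxcl10 at 5.09, had 13 of 19 and 0.10, and knockdown replicate 3, at 5.25, had 13 of 19 and 0.08. The remaining females had 3 to 11 of 19, with averages from −0.11 to 0.03.

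**Figure D3:**
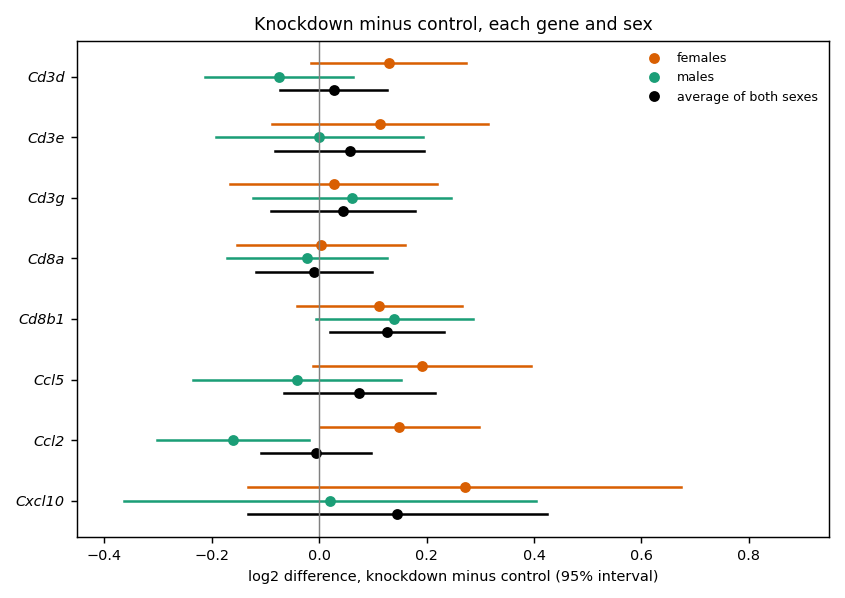
Difference between knockdown and control (x axis, log2 scale) with its 95% interval from limma for each of the 8 genes, in females, in males and in the average of both sexes. The Ccl2 points lie on opposite sides of 0 at 0.15 and −0.16, and the Cxcl10 interval of the females, from −0.13 to 0.67, runs over the widest range to the right.

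Whether the same mice were high for several of the genes was asked with correlations between the genes, after the group mean had been taken from each value. Over 23 mice 24 of 28 pairs had a positive Pearson r, with a median of 0.34, and 0 of 28 passed Benjamini-Hochberg adjustment over the pairs. The largest was Cd3g with Ccl5, at r = 0.69 (permutation p = 0.00784, adjusted 0.0732) and Spearman rho = 0.47 (permutation p = 0.0466, adjusted 0.233). It was 0.36 without the 2 mice farthest from the median of Cd3g. Within females r was 0.83, and 0.61 without replicate 4 and 0.12 without the 2 farthest mice. Within males it was 0.36. Cd3e with Ccl5 had r = 0.61 (permutation p = 0.00538, adjusted 0.0732) and rho = 0.48 (permutation p = 0.0433, adjusted 0.233), and r was 0.54 without the 2 mice farthest from the median of Cd3e. Within females r was 0.73, and 0.46 without replicate 4 and 0.34 without the 2 farthest mice, and within males it was 0.51. Among the 3 pairs of CD3 chains, r over all mice was −0.06 for Cd3d with Cd3g (permutation p = 0.844, adjusted 0.850; rho −0.06, permutation p = 0.802, adjusted 0.852), 0.02 without the 2 farthest mice. It was 0.13 for Cd3d with Cd3e (permutation p = 0.599, adjusted 0.730; rho 0.18, permutation p = 0.450, adjusted 0.548), 0.23 without the 2 farthest mice, with −0.31 within females and 0.64 within males. It was 0.37 for Cd3e with Cd3g (permutation p = 0.121, adjusted 0.261; rho 0.21, permutation p = 0.379, adjusted 0.531), 0.11 without the 2 farthest mice. All these values for Cd3d and Cd3g lay under the background line. In females the median r over the pairs was 0.34 with and 0.05 without replicate 4.

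**Figure D4:**
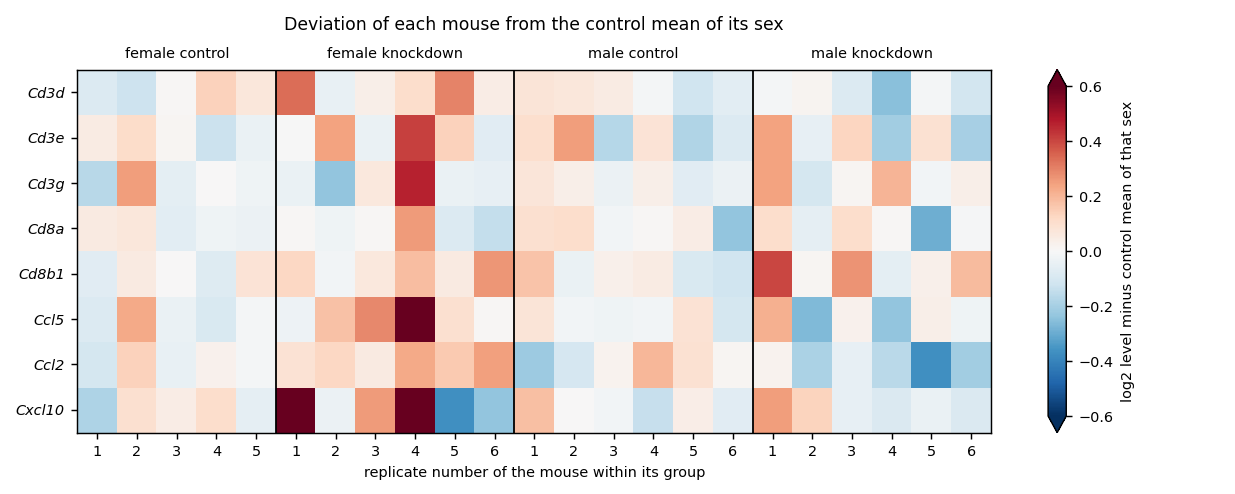
Log2 level of each gene (rows) in each mouse (columns) minus the control mean of its sex, in colour, with values beyond 0.6 drawn in the darkest colour. Female knockdown replicate 4 is above the control mean in all 8 rows, and Ccl2 is mostly red in knockdown females and mostly blue in knockdown males.

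The genes whose pattern over the 23 mice was most like each of the 8 were read from the same centred values, as the 3 with the highest r among all genes; being the best of so many, these r values carry no test. For Cxcl10 they were Oasl2 (r = 0.80), Rnf213 (0.80) and Oas1b (0.79), which were 0.62, 0.61 and 0.55 without female knockdown replicate 4. For Ccl5 they were Cybb (0.84) and the MHC class II genes H2-Ab1 (0.82) and H2-Aa (0.82), at 0.75, 0.74 and 0.76 without that mouse. For Cd3g they were Ddx58 (0.85), B2m (0.82) and H2-K1 (0.82), at 0.73, 0.69 and 0.66 without it. For Cd8a they were Snord52 (0.79), Uba7 (0.76) and Irgm1 (0.75), at 0.78, 0.70 and 0.66. For Cd3e they were an immunoglobulin kappa variable gene (0.76), Neurog2 (0.75) and Atp2b2 (0.75), at mean levels of 4.18, 6.81 and 9.61. These r values were almost the same, so the order of the 3 carries little weight. The nearest to Cd3d, Cd8b1 and Ccl2 were 4930512B01Rik (0.81), Tfap2b (0.78) and Gm8578 (0.85). Genes of the interferon or MHC class I list were thus among the 3 nearest for Cxcl10, Cd3g and Cd8a, and not among the 3 nearest for the other 5.

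Other genes of the same pathways gave 0 calls after adjustment by limma. Of 18 other T cell genes, 11 were above 0 in females and 9 in males, with medians of 0.05 and −0.004. Over all genes 50.1% were above 0 in females and 51.4% in males, and over the olfactory receptor genes 65.5% and 43.6%. Icos, a co-stimulatory receptor of activated T cells, was at 0.15 (SE 0.05, unadjusted p = 0.00702) in females, and Il7r, the receptor for the survival signal interleukin 7, at −0.12 (SE 0.06, unadjusted p = 0.0444) in males. Of 14 cytotoxic effector genes, 12 were above 0 in females and 11 in males. Gzma, a protease of killer cell granules, was at 0.15 (SE 0.05, unadjusted p = 0.00441, adjusted p = 0.996) in males and at 0.11 (SE 0.04, unadjusted p = 0.0047, adjusted p = 0.980) in the average. Many of these genes were dim, with 11 of the 18 T cell and 8 of the 14 cytotoxic genes above the background line on no array. In females the levels of Icos, Il7r and Gzma were at most 5.45, 4.35 and 4.34, all under the line. Of 6 genes of tissue-resident memory T cells, 4 were above 0 in females and 6 in males. The integrin gene Itga1, which other cells also express, was at −0.14 (SE 0.06) in females and 0.15 (SE 0.06) in males.

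The chemokine system around the 3 ligands gave 0 adjusted calls as well. Of 28 other chemokine ligands, 9 were above the background line on all 23 arrays, as was 1 of the 18 other T cell genes, Lat. Cx3cl1, a chemokine of neurons, and Cxcl12 were among the 9. Of the 28 ligands 18 were above 0 in females and 14 in males, with medians of 0.04 and 0.003. Ccl20, a ligand of dendritic cells and T cells, was at 0.17 (SE 0.08) in females, and Ccl4, a chemokine of activated immune cells, at 0.14 (SE 0.06) in the average. Cxcr3, the receptor for Cxcl10, was at 0.12 (SE 0.07) in females. Interferon response genes were above 0 in 17 of 19 in females, with a median of 0.09, and without replicate 4 in 8 of 19, with a median of −0.03. In males 5 of 19 were above 0, with a median of −0.06, and 8 of 19 without control replicate 1, with a median of −0.02. MHC class I genes were above 0 in 8 of 9 in females, with a median of 0.05, and in 5 of 9, with 0.01, without replicate 4. In males 6 of 9 were above 0, with a median of 0.04, and 3 of 9, with −0.02, without knockdown replicate 1. Beside these, microglial genes were above 0 in 5 of 15 in females and 14 of 15 in males, against 50.1% and 51.4% of all genes. The male count was not particular to microglia. Medium spiny neuron genes were above 0 in 4 of 11 in females and 11 of 11 in males, and cortical neuron genes in 5 of 8 and 7 of 8. Microglial list means were 7.79 to 7.96 in knockdown and 7.84 to 7.95 in control females, and 7.66 to 7.74 and 7.55 to 7.72 in males. B and plasma cell genes were above 0 in 9 of 9 in females and in 6 of 9 without replicate 4, and in 4 of 9 in males and 2 of 9 without knockdown replicate 1. Their list means ran from 5.47 to 6.03 in knockdown females, at most 5.66 without replicate 4, and from 5.44 to 5.72 in control females. The part of these cell types in the differences of the 8 genes was not tested.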

How the data were processed

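Total RNA from micropunched nucleus accumbens was labelled from 150 ng per mouse, per the labels' protocols, and read on whole-transcript arrays. The authors deposited log2 intensities per probe set, 41345 on 23 arrays. Per the submitters' processing notes they used Transcriptome Analysis Console. Its version, the normalization and the genome build: not given in the sources used here. Precision is limited by the number of arrays.

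Probe sets were named through the platform annotation, with 1 symbol for 23521, several for 1814 and none for 16010. A gene is its single-symbol probe set with the highest mean, which gave 22180 genes, and each of the 8 genes matched RefSeq by its Entrez number. All 23 arrays entered 1 limma 3.58.1 fit in R 4.3.3 with 1 mean per group, 19 residual degrees of freedom and default empirical Bayes settings. Adjustment was by Benjamini-Hochberg over all probe sets, two-sided, at 0.05. Single genes were also compared within females and within males by an exact permutation test (two-sided), and correlations by 100000 permutations within groups. The spread is that between mice, which the series calls biological replicates. The fit was tested on simulated data.

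Named genes are the 8 members, their 3 nearest genes, Nr1d1, and the genes of the 15 other lists with the 2 smallest unadjusted p per contrast. Genes named for their values in female knockdown replicate 4, and those used to check the tissue, were picked after their values were seen. The list of chemokine receptors is not reported here as a whole. The members and lists were chosen with earlier results of these data known. Alternatives covered normalization, centring, array weights, variance model, arrays in the fit, dim probe sets, probe sets per gene, a replicate block, Slc17a7 as a covariate and each array left out. Counts of the lists without the mice that stand apart were added after seeing the data.

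Replicate numbers are shared by the groups. Deviations of same-numbered control and knockdown mice correlated between −0.09 and 0.11 in 5 female pairs and between −0.10 and 0.14 in 6 male pairs, so the numbers were not taken to pair the mice.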

Additional observations from a re-analysis of the deposited data

Results flagged for a closer look

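Over the 8 genes and 4 groups, 32 sets of mice were searched for a highest or lowest mouse set far apart from the others by Dixon's criterion, which chance meets in about 5% of sets. It was met in 2 sets. Ccl5 in female control replicate 2 was at 6.23, with the next control at 5.99, a gap of 0.75 of the range of the group. Cd8a in male control replicate 6 was at 4.52, with the next control at 4.74, a gap of 0.647 of the range. The first value lies in a control female that was also the highest control for Cd3e, at 5.79, Cd3g, at 4.61, Cd8a, at 5.14, and Ccl2, at 5.92. This control lay above the control mean for 7 of the 8 genes, by 0.10 on average. Female knockdown replicate 4 did not pass this criterion for any of the 8 genes, with Cd8a, at 5.33 against 5.08 for the next mouse, at the critical value of 0.625.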

How the results depend on the processing

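No alternative brought any of the 8 genes past the adjusted threshold, and the lowest adjusted p over all of them was 0.545 by limma, for Ccl2 in the male minus female contrast. The count of probe sets past the threshold was 0 except for 1 with array weights in that contrast, an unnamed probe set. Leaving out single arrays gave 0 to 1 in females (1 without female knockdown replicate 1 or male knockdown replicate 4), 0 to 1 in males and 0 to 1 in the male minus female contrast (1 without male control replicate 1 or 5 in both), and 0 in the average. The cause was not tested. The median of the 8 genes in the male minus female contrast was −0.16, from −0.189 to −0.048 with single arrays left out (−0.048 without female knockdown replicate 4), and −0.0147 without female knockdown replicates 1 and 4 together, an alternative chosen after seeing the data. For the females this median was 0.12, from 0.08 to 0.146 with single arrays left out.

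Signs that turned belonged to differences near 0, apart from Cxcl10 without its 2 highest females. After quantile normalization Cd3g was −0.00232 and Cd8a −0.0303 in females, and Cd8a 0.0166 in males minus females. With array median centring Cd8a was −0.0227 and 0.00767 in these contrasts, and with olfactory receptor centring −0.0357 and 0.0357, with Cd3g at −0.0113 in females. With array weights Cd3g was −0.00508 and Cd8a −0.0114 in females. With the replicate block Cd8a was 0.00433 in the average. The block changed no call and left the count of calls at 0, and 0 of 5 female and 1 of 6 male mice correlated best with the mouse of the same number. Without female knockdown replicates 1 and 4, Cd3g was −0.0655, Cd8a −0.0615 and Cxcl10 −0.096 in females, Cd3g −0.00192 and Cxcl10 −0.038 in the average, and Cd8a 0.0382 and Cxcl10 0.116 in males minus females.

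With single arrays left out, Cd3g ran from −0.06 to 0.09 and Cd8a from −0.048 to 0.032 in females. In males Cd8a ran from −0.0703 to 0.031, Ccl5 from −0.093 to 0.003 and Cxcl10 from −0.0263 to 0.0563. In the average Cd8a ran from −0.0357 to 0.0168 and Ccl2 from −0.0273 to 0.0157. In males minus females Cd3g ran from −0.0283 to 0.122, Cd8a from −0.073 to 0.0283 and Cd8b1 from −0.0243 to 0.0677. Cd3g had no value where dim probe sets were left out. Ccl2 kept its sign in females, in males and in males minus females under every alternative run. Signals near background limit 7 of the 8 genes in both sexes: Cd3d, Cd3g, Cd8a and Cd8b1 were under the line on all 23 arrays, and Ccl2, Cd3e and Cxcl10 on all but 1. Ccl5 passed it on 12 of 12 male but only 5 of 11 female arrays, so in females it shares this limit.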

Other observations

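Immunoglobulin transcripts, made by B and plasma cells, were among the genes by which female knockdown replicate 4 differed most from the other females. Jchain, which joins secreted antibody, was at 7.19 there against at most 5.33 in the other 10 females, and Ighm, the IgM heavy chain, at 10.28 against 8.23 to 9.64. Iigp1, an interferon-induced GTPase, was at 6.82 against 4.81 to 5.83, and H2-K1, a classical MHC class I heavy chain, at 7.98 against 6.33 to 7.50. Genes were also ranked by the distance of this mouse from the median of the other females. Igkv5-43, an immunoglobulin kappa variable gene, ranked 1 among all 22180 genes, at 12.35, but the highest of the other females was at 12.21. H2-Ab1, of MHC class II, ranked 3, at 7.33, a value that another female reached as well. Cxcl10 ranked 11 and Ccl5 ranked 81, while Ccl2 ranked 2942 and Cd3d 6522. The genes of the other T cell and cytotoxic lists that passed the background line on all arrays were within or at the edge of the range of the other females: Lat was at 6.76, Nkg7 at 6.62 and Ccl4 at 6.52, against 6.52 to 7.01, 6.62 to 6.90 and 6.5 to 6.98 in the others.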
